A study of Mus musculus with 6 samples.

Results

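The heat shock and chaperone genes described here are the genes of the HSP90, HSP70 and HSP110, small HSP, HSP60 and HSP10, CCT and DNAJ families, picked from the expression table by their symbols. The patterns took symbols that begin with Hsp90, with Hspa, Hspb, Hspd, Hspe or Hsph and a digit, with Cct and a digit from 2 to 8, or with Dnaja, Dnajb or Dnajc and a digit. They matched 81 of 24016 genes in 8 families, namely 3 HSP90, 14 HSP70 and HSP110, 8 small HSP, 2 HSP60 and HSP10, 9 CCT, 4 DNAJA, 13 DNAJB and 28 DNAJC genes. The set was chosen partly because Dnajc4 was higher in all Krt15+ libraries, so the difference between the groups is given below as a description, with its error and with no p-value for any of these genes.

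Chaperones hold unfolded proteins and let them fold. J-domain proteins of the DNAJ families bring clients to HSP70 and start its ATP hydrolysis, exchange factors of the HSP110 and BAG kind reset it, and HSP90 takes over clients such as kinases and steroid receptors. The CCT complex, also called TRiC, folds actin and tubulin. HSP60 with its lid HSP10 folds proteins in mitochondria, and small HSPs hold damaged proteins without ATP. The transcription factor HSF1 drives the stress-inducible genes of these families from promoter sites built of alternating GAA and TTC units. In stratified epithelia HSPB1, the human HSP27, is known for its high level.

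RNA was measured in basal cells of the mouse esophageal epithelium, 3 libraries called Krt15+ and 3 called Krt15-. All mice were Krt15-CrePR1;R26mTomato/mGFP: the Krt15 promoter drives a Cre that becomes active with RU486 (mifepristone, a progesterone and glucocorticoid receptor blocker), and Cre turns a membrane Tomato reporter to membrane GFP. All received 1 mg of RU486 and were sorted 24 h later, the Krt15+ cells as CD29high GFP+ and the Krt15- cells as CD29high GFP-, so both groups carry the same alleles and the same drug. GFP records that Cre has acted, not the level of Krt15, and basal cells in which Cre did not act are in the Krt15- group. cDNA was made straight from cells with a SMART-Seq v4 low-input kit, which does not mark strand. Whether each library comes from its own mouse is not in the labels, so p-values speak of the scatter of these libraries, part of which may be technical.

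Basal keratins were high in all 6 libraries. Krt14, a basal keratin, had 1772, 2905 and 949 FPKM in Krt15+ replicates 1 to 3 and 1061, 3199 and 1387 FPKM in Krt15- replicates 1 to 3, where FPKM are fragments per kilobase of transcript and per mega (M) of fragments mapped. Krt15 itself had 3350, 9692 and 2420 FPKM in Krt15+ and 2350, 6784 and 3412 FPKM in Krt15- libraries, so the groups overlapped. Trp63, the basal transcription factor p63, had 44.0, 87.2 and 37.2 FPKM in Krt15+ and 0.46, 30.8 and 39.3 FPKM in Krt15- libraries, and Itgb1, which encodes CD29, 23.4, 43.3 and 10.8 FPKM in Krt15+ against 1.03, 20.7 and 16.7 FPKM in Krt15- libraries. These 2 basal genes were thus near 0 or low in Krt15- replicate 1. Of the 8 basal markers 7 had a difference above 0 (5 without Krt15- replicate 1). Of the 7 suprabasal markers tested 5 did (4 without Krt15- replicate 1). That list summed to 8810 to 51518 FPKM in Krt15+ and 7590 to 36675 FPKM in Krt15- libraries. Krtdap made up most of the sum in every library but Krt15- replicate 3, where it was listed at 0. It had 7254, 13640 and 41287 FPKM in Krt15+ and 33634 and 22532 FPKM in Krt15- replicates 1 and 2. The suprabasal markers Krt4 and Krt13 were also high, with 606 to 6295 and 847 to 3771 FPKM over the 6 libraries.

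Krt15- replicate 1 stood apart: 3247 genes reached 1 FPKM there, against 6906 to 9194 in the other 5 libraries. Depth estimated from the values was 27.6, 34.1 and 30.0 M fragments in Krt15+ and 29.1, 41.7 and 39.6 M in Krt15- libraries, so that library was not the shallowest by this measure. Most medians and counts over gene groups, and some differences of single genes, are given below with and without it. Values given only once include it and may also depend on it. Fibroblast markers also moved with the groups: 7 of 8 tested were below 0 in the Krt15+ minus Krt15- difference. For 6 of them all Krt15+ values lay under all Krt15- values, beside 2.44% of all genes tested. But 6 of the 8 had a Krt15+ mean under 1 FPKM. These passed the filter on low values through their Krt15- level alone, which fixed their direction. The summed level of the list of 9 was 71.3 to 179 FPKM in Krt15+ and 176 to 788 FPKM in Krt15- libraries. Col1a1, Col1a2 and Col3a1 were at or near 0 in every Krt15+ library, and Dcn, with 167, 176 and 71.1 FPKM, made up nearly all of the Krt15+ sum. Of the immune markers, 7 of 9 tested were below 0, and 3 of these likewise had a Krt15+ mean under 1 FPKM. Their sums were 146 to 7316 FPKM in Krt15+ and 606 to 1022 FPKM in Krt15- libraries, for the whole immune list. Lyz2 alone had 7279 FPKM in Krt15+ replicate 1. Of the muscle markers 2 of 11 passed the filter on low values and of the endothelial markers 0 of 6. The part that such cells play in the levels given below was not tested, and in bulk samples fewer cells of a type and less RNA per cell cannot be told apart.

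Promoter sequences were taken from RefSeq (GRCm38.p6), from 250 bases before to 50 bases after a gene's start, and 66 of the 81 genes had an entry. They are shown because HSF1 sites are what the stress-inducible members are known to share. The search used 3 alternating units, GAANNTTCNNGAA or TTCNNGAANNTTC, and 2 units, GAANNTTC or TTCNNGAA, where N is any base. Each motif is searched on both strands and overlapping matches count. The 3-unit motif was found in 4 of the 66 genes, or 6.06%, against 179 of all 27025 genes with a promoter, or 0.662%. The 2-unit motif was found in 20 of 66, or 30.3%, against 4587 of 27025, or 17.0%. The 4 genes with 3 units are Hspe1, Hspd1, Dnajb6 and Hsph1, and their windows are printed here 5′ to 3′ on the gene's strand with the matching units in capitals.
Hspe1: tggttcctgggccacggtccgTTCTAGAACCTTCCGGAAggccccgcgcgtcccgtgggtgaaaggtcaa
Hspd1: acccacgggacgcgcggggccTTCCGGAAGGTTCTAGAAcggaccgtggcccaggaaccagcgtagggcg
Dnajb6: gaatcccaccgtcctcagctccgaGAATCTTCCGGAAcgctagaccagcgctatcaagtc
Hsph1: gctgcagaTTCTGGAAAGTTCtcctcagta
The Hspe1 window lies at chr1:55088038-55088107 on the plus strand and the Hspd1 window at chr1:55088028-55088097 on the minus strand. They share a single 18-base run, read from both sides, because the HSP10 and HSP60 genes lie head to head. The Dnajb6 window is chr5:29735828-29735887 on the plus strand. The Hsph1 window, chr5:149636279-149636308 on the minus strand, starts 7 bases after the gene's start.

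The inducible HSP70 pair Hspa1a and Hspa1b and the small HSP gene Hspb1 hold only 2-unit matches in the window. They are printed because these genes carry most of the inducible HSP70 and of the small HSP signal.
Hspa1a: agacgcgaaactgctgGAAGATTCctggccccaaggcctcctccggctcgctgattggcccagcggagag
Hspa1b: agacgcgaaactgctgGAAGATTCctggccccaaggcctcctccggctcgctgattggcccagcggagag
Hspb1: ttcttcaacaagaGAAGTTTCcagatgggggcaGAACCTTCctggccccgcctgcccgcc
These are chr17:34972207-34972276 and chr17:34959289-34959358, both on the minus strand, and chr5:135887789-135887848 on the plus strand. The Hspa1a and Hspa1b windows are identical over all 70 bases, the 2 whole promoter windows agree at 98.7% of 300 bases, and the longest open reading frames agree at 99.6% of 1926 aligned bases. Fragments of the 2 genes can therefore hardly be told apart, and their separate FPKM are uncertain. Hspa1a and Hspa8 agree at 75.2% and Hsp90aa1 and Hsp90ab1 at 76.8%, so those pairs are easier to separate. Dnajc4, Hspb11 and the stress-inducible Dnajb1 held neither motif in these windows, and Hsp90aa1, Hsp90ab1 and Hspa8 are among the 15 genes with no entry. A match is a match of letters and no measure of HSF1 binding.

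Chaperone mRNAs were abundant in both groups and led by few genes. The 81 genes summed to 6640, 9742 and 7218 FPKM in Krt15+ and to 7258, 9364 and 7034 FPKM in Krt15- libraries, that is 7867 ± 1649 and 7885 ± 1285 FPKM (SD, n = 3 each). The groups overlapped, and replicate 2 was the highest in each. The 5 genes of highest mean, Hspb1, Hspa8, Dnajb1, Hspe1 and Hsp90ab1, held 59.2% to 65.9% of that sum in every library. Of the 81 genes, 57, 57 and 48 reached 1 FPKM in Krt15+ and 34, 53 and 56 in Krt15- libraries. That is 70.4%, 70.4% and 59.3% of them in Krt15+ and 42.0%, 65.4% and 69.1% in Krt15- libraries, against 29.4% to 38.3% of all genes in Krt15+ and 13.5% to 33.0% of all genes in Krt15- libraries. Krt15- replicate 1, low for all genes, was low here too.

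**Figure D1:**
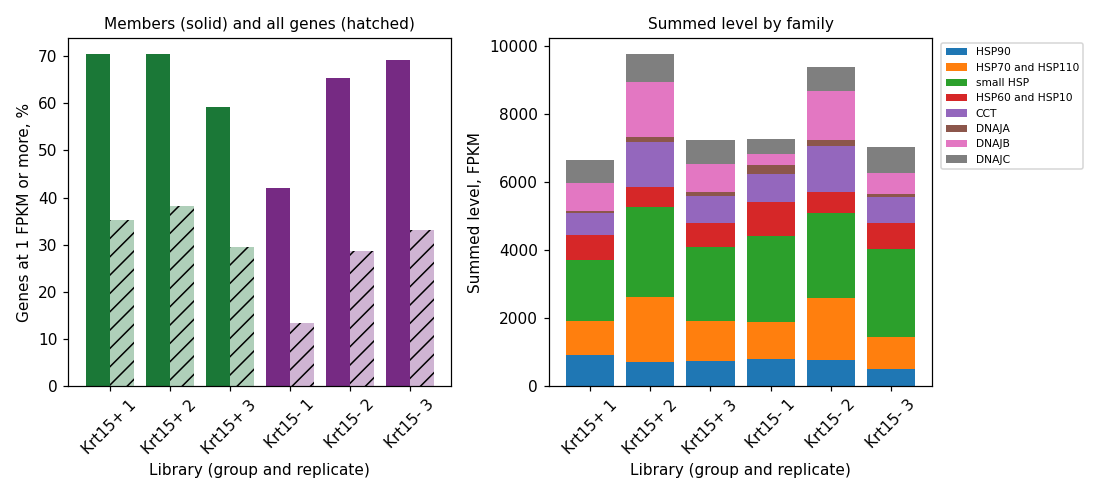
Left, the percent of the 81 heat shock and chaperone genes (solid) and of all 24016 genes (hatched) at 1 FPKM or more in each library. Right, their summed FPKM stacked by family; the sums run from 6640 to 9742 in Krt15+ and from 7034 to 9364 in Krt15- libraries, while Krt15- replicate 1 has the shortest bars on the left.

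In all 6 libraries 13 of the 81 genes were listed at 0. These were Hspa2, Hspa12b, Hspb3, Hspb7, Hspb9, Cct8l1, Dnajb3, Dnajb5, Dnajb7, Dnajb8, Dnajc5b, Dnajc5g and Dnajc22, among them Hspa2 and Dnajb3, known from testis, and Hspb7 and Hspb3, known from muscle. A further 8 genes had a mean under 1 FPKM: Cct6b, Dnajc6, Dnajc13, Dnajc16, Dnajc27, Dnajc28, Dnajb13 and Hspa12a. Of these Cct6b, a CCT subunit known from testis, reached 4.32 FPKM in Krt15- replicate 3 and 0.88 in Krt15+ replicate 2 and was listed at 0 in the other 4 libraries. The remaining 60 genes averaged 1 FPKM or more over all libraries and entered the fit. Of the 60, 18 were listed at 0 in at least 1 library, 4 had a mean under 1 FPKM in Krt15- and 1 had a mean under 1 FPKM in Krt15+ libraries, so the filter let these in through the group in which they were high.

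Between the groups, limma-trend on log2(FPKM + 1) called 0 of 9423 genes at a Benjamini-Hochberg adjusted p below 0.05, that is 0% (limma, smallest adjusted p 0.398), and none of the 60 members. An unadjusted p below 0.05 was reached by 370 genes, or 3.93%, of which 300 were higher and 70 lower in Krt15+. With library weights in the same limma fit 8 genes were called, none a member. All 3 Krt15+ values lay above all 3 Krt15- values for 3 members, Dnajc4, Hsph1 and Dnajb14, beside 8.85% of all genes tested, and below them for 1 member, Hspb11, beside 2.44% of all genes. These are 5% and 1.67% of the members, and nothing is read from them, since Dnajc4 led to the choice of the set and Dnajb14 passed the filter through its Krt15+ level alone. Without Krt15- replicate 1 the same 3 genes stood above, beside 10.8% of all genes, and Hspb11, Dnajb4 and Dnajc24 stood below, beside 8.95%.

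The difference, Krt15+ minus Krt15- in mean log2(FPKM + 1), was above 0 for 40 of 60 members, with a median of 0.42. Over all genes it was above 0 for 6467 of 9423, or 68.6%, with a median of 0.63. Both medians rested on Krt15- replicate 1: without it they were -0.07 for the members, 28 above and 32 below 0, and 0.02 for all genes. That library was the lowest, or tied for the lowest, for 63.3% of the members tested and for 65.4% of all genes tested. The members' highest value fell in Krt15- replicate 2 for 18 genes and in Krt15+ replicate 2 for 15 genes, that is 30% and 25% of the members, beside 22.8% and 24.1% of all genes tested.

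**Figure D2:**
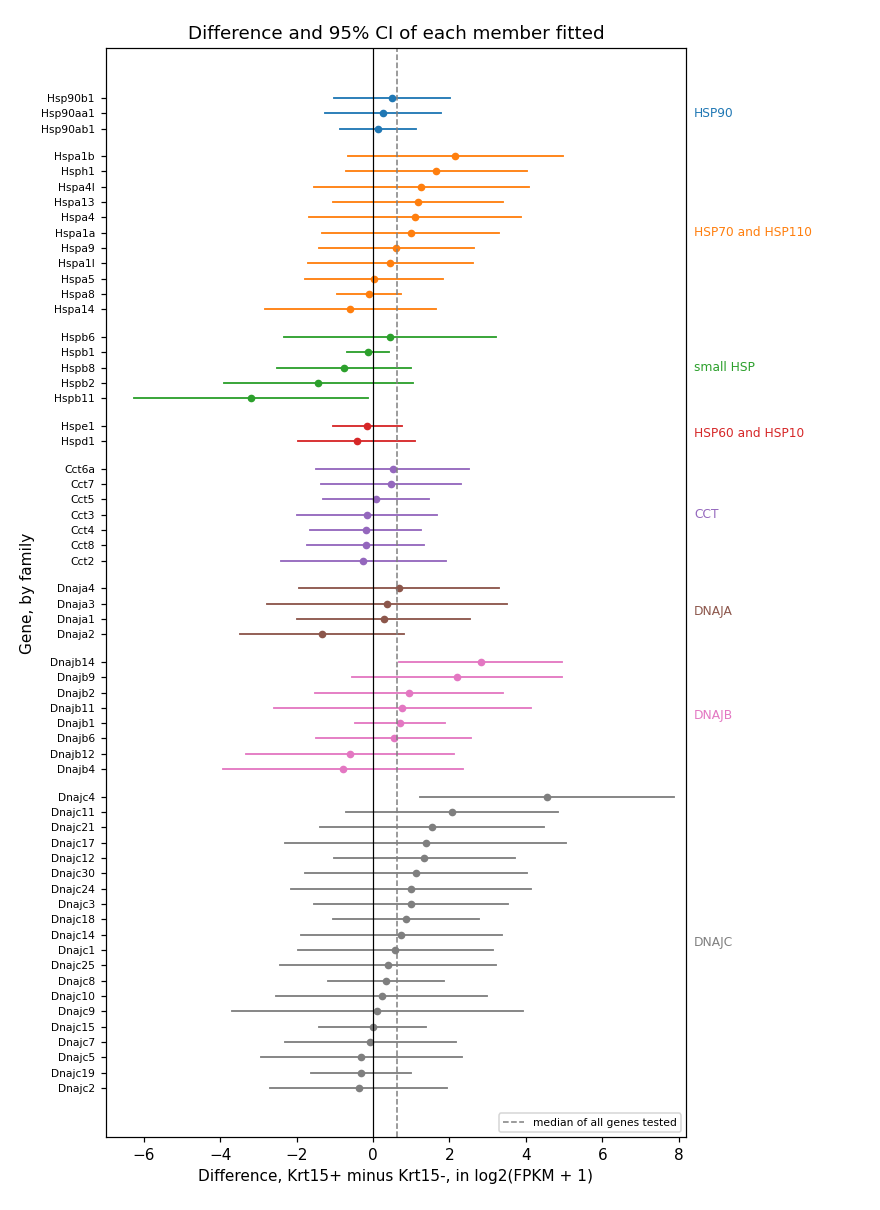
Difference in mean log2(FPKM + 1), Krt15+ minus Krt15-, for each of the 60 heat shock and chaperone genes fitted, by family, with the limma 95% confidence interval as a line. The dashed line is the median of all genes tested, 0.63. Most intervals are wide and include 0; Dnajc4, for which the set was chosen, lies far to the right at 4.54.

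The 3 HSP90 genes were expressed in every library with no clear difference between the groups. Hsp90ab1, the constitutive cytosolic form, had 558, 498 and 452 FPKM in Krt15+ and 619, 511 and 307 FPKM in Krt15- libraries, with a difference of 0.12 ± 0.45 (SE), or 0.34 without Krt15- replicate 1. Hsp90aa1, the inducible cytosolic form, had 218, 75.9 and 179 FPKM in Krt15+ and 131, 141 and 94.3 FPKM in Krt15- libraries, a difference of 0.25 ± 0.70 (SE). Both pairs of ranges overlapped, and the Krt15+ libraries held both the lowest and the highest Hsp90aa1 value. Hsp90ab1 made up 71.9%, 86.8% and 71.7% of the cytosolic HSP90 FPKM in Krt15+ and 82.5%, 78.3% and 76.5% in Krt15- libraries. Hsp90b1, the GRP94 of the endoplasmic reticulum, had 135, 147 and 97.5 FPKM in Krt15+ and 64.1, 113 and 93.2 FPKM in Krt15- libraries. The median of the 3 differences was 0.25 (0.31 without Krt15- replicate 1), and it was -0.21 with upper-quartile and -0.24 with median-of-ratios scaling, so its direction is not settled.

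Of the 14 HSP70 and HSP110 genes 11 were fitted, 9 with a difference above 0 and 2 below, and a median of 0.99. Without Krt15- replicate 1 the median was 0.09, with 8 above and 3 below. Hspa13, among the 9, had a Krt15- mean of 0.49 FPKM and passed the filter on low values through its Krt15+ level alone. Hspa8, the constitutive cytosolic HSC70, led the family with 664, 1063 and 709 FPKM in Krt15+ and 906, 1073 and 636 FPKM in Krt15- libraries, means of 812 ± 219 and 872 ± 220 FPKM (SD, n = 3 each). It supplied 56.1% to 66.3% of the family's summed FPKM in Krt15+ and 58.8% to 83.6% in Krt15- libraries. Its difference was -0.10 ± 0.38 (SE), within the spread of either group.

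The inducible HSP70 genes varied far more. Hspa1b had 45.8, 215 and 188 FPKM in Krt15+ and 2.32, 131 and 48.3 FPKM in Krt15- libraries, a difference of 2.16 with a 95% confidence interval of -0.67 to 4.98. Hspa1a had 21.7, 165 and 88.5 FPKM in Krt15+ and 18.2, 101 and 21.1 FPKM in Krt15- libraries, a difference of 0.99 with an interval of -1.33 to 3.30. In both genes replicate 2 was the highest and replicate 1 the lowest library of each group, and the groups overlapped. Without Krt15- replicate 1 the differences were 0.62 for Hspa1b and 0.55 for Hspa1a. Since the 2 genes are nearly identical, their sum is the safer figure: as a share of Hspa1a, Hspa1b and Hspa8 together it was 9.23%, 26.3% and 28.0% in Krt15+ and 2.22%, 17.8% and 9.84% in Krt15- libraries. Those ranges overlap.

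Hsph1, the HSP110 that exchanges nucleotide on HSP70, had 23.5, 48.1 and 15.9 FPKM in Krt15+ and 10.2, 13.5 and 3.01 FPKM in Krt15- libraries. Every Krt15+ value was above every Krt15- value, the nearest pair being 15.9 and 13.5 FPKM. The difference was 1.66, with an interval of -0.72 to 4.03. The groups overlapped with upper-quartile, median-of-ratios or quantile scaling. Hspa5, the BiP of the endoplasmic reticulum, had 167, 179 and 99.7 FPKM in Krt15+ and 44.6, 385 and 165 FPKM in Krt15- libraries, so that its lowest and highest library were both Krt15-. Hspa9, the mitochondrial HSP70, had 29.1, 140 and 47.7 FPKM in Krt15+ and 25.5, 50.3 and 41.7 FPKM in Krt15- libraries.

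**Figure D3:**
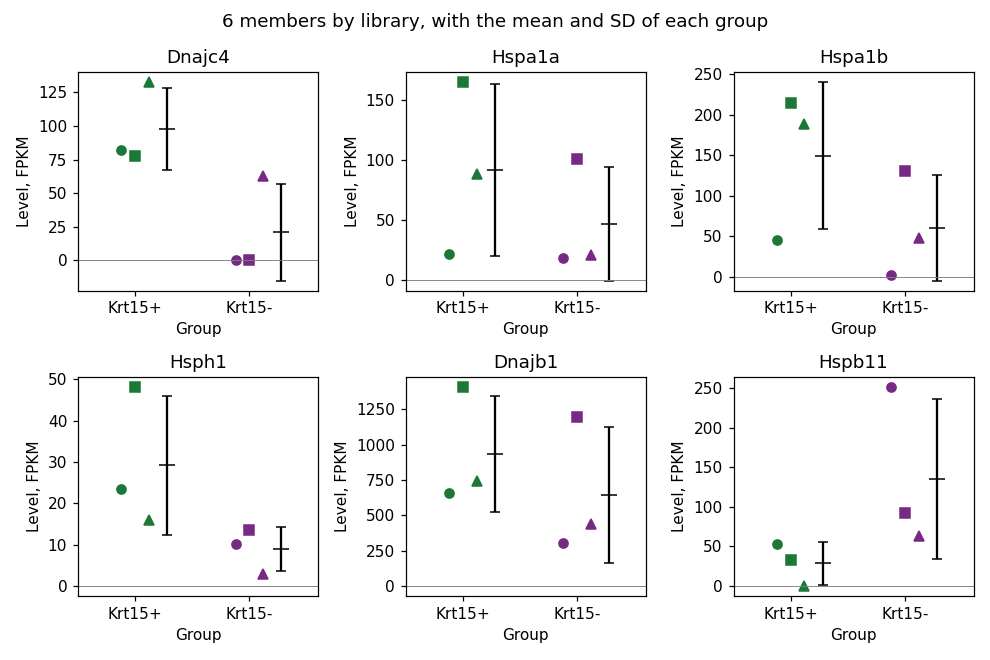
FPKM of Dnajc4, Hspa1a, Hspa1b, Hsph1, Dnajb1 and Hspb11 in each library (circle, square and triangle for replicates 1, 2 and 3), Krt15+ left of Krt15-, with each group's mean and SD as bars on a linear axis. Groups are apart for Dnajc4, Hsph1 and Hspb11 and overlap for the others; replicate 2 is the highest of both groups for Hspa1a, Hspa1b and Dnajb1.

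Hspb1 (HSP27) was the highest and the steadiest of all members. It had 1680, 2479 and 2148 FPKM in Krt15+ and 2115, 2299 and 2428 FPKM in Krt15- libraries, means of 2102 ± 402 and 2281 ± 157 FPKM (SD, n = 3 each), and a coefficient of variation of 13.2% over the 6 libraries. The difference was -0.13 ± 0.25 (SE), with an interval of -0.68 to 0.41. Among all genes it ranked 82, 28 and 41 in Krt15+ and 115, 37 and 53 in Krt15- libraries. It made up 93.2% to 98.5% of the small HSP FPKM in Krt15+ and 83.9% to 94.0% in Krt15- libraries. In the order of means from 5 FPKM up, Hspb1 and the next gene, Hspa8, were the only neighbours whose ranges over the 6 libraries did not overlap.

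Hspb8, which works with the co-chaperone BAG3 in the clearance of damaged proteins, had 70.4, 112 and 32.8 FPKM in Krt15+ and 155, 118 and 69.4 FPKM in Krt15- libraries, and the ranges overlapped. Hspb11 had 53.0, 32.4 and 0.08 FPKM in Krt15+ and 251, 91.8 and 62.8 FPKM in Krt15- libraries. Its Krt15+ values all lay below its Krt15- values, and its difference was -3.20, with an interval of -6.27 to -0.13. Without Krt15+ replicate 3, where it was near 0, the difference was -1.43 and the groups still did not overlap. With upper-quartile or quantile scaling the groups overlapped. Despite its symbol Hspb11 is known as IFT25, a protein of intraflagellar transport rather than a small HSP chaperone. Of the 8 small HSP symbols 5 were fitted, 1 above and 4 below 0, with a median of -0.75. Without Krt15- replicate 1 there were 0 above and 5 below, with a median of -0.50. Of those 5, Hspb2 was listed at 0 in all but Krt15- replicate 3, with 18.7 FPKM. It thus passed the filter on low values through its Krt15- level alone, which fixed its direction. Hspb6 was listed at 0 in all but Krt15+ replicate 2, with 14.8 FPKM, and Krt15- replicate 3, with 5.43 FPKM.

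The mitochondrial chaperonin genes, whose shared promoter run is printed above, overlapped between the groups. Hspe1 (HSP10) had 640, 468 and 628 FPKM in Krt15+ and 839, 467 and 658 FPKM in Krt15- libraries. Hspd1 (HSP60) had 74.6, 139 and 74.8 FPKM in Krt15+ and 145, 133 and 98.7 FPKM in Krt15- libraries. Their differences were -0.15 ± 0.41 and -0.43 ± 0.70 (SE), both below the median of all genes, and without Krt15- replicate 1 they were 0.05 and -0.32. Hspe1 supplied 89.6%, 77.1% and 89.4% of the pair's FPKM in Krt15+ and 85.3%, 77.8% and 87.0% in Krt15- libraries, so replicate 2 had the lowest share in each group. The exons of the 2 genes overlap by up to 112 bases on opposite strands in GENCODE, and without strand fragments from there cannot be assigned.

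The CCT subunits 2 to 8 were all expressed, at unequal levels, although the complex holds its subunits in equal numbers. Cct5 was the highest of the 7 fitted genes in 5 of the 6 libraries, with 184, 406 and 215 FPKM in Krt15+ and 122, 418 and 267 FPKM in Krt15- libraries; the exception was Krt15- replicate 1, where Cct4 led with 259 FPKM. The highest subunit exceeded the lowest 3.77, 6.98 and 4.70 times in Krt15+ and 14.8, 3.95 and 15.5 times in Krt15- libraries. In Krt15- replicates 1 and 3 the wide ratios came with a low Cct6a (17.5 FPKM) and a low Cct2 (17.3 FPKM). Cct2 itself had 49.4, 58.2 and 92.3 FPKM in Krt15+ and 204, 125 and 17.3 FPKM in Krt15- libraries. Of the 7, 3 differences were above and 4 below 0, with a median of -0.15. Without Krt15- replicate 1 there were 2 above and 5 below, with a median of -0.21. With quantile normalization the median was 0.04. Subunit 1, whose gene Tcp1 is not taken by the symbol patterns, had 50.4, 108 and 121 FPKM in Krt15+ and 43.5, 135 and 80.7 FPKM in Krt15- libraries.

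**Figure D4:**
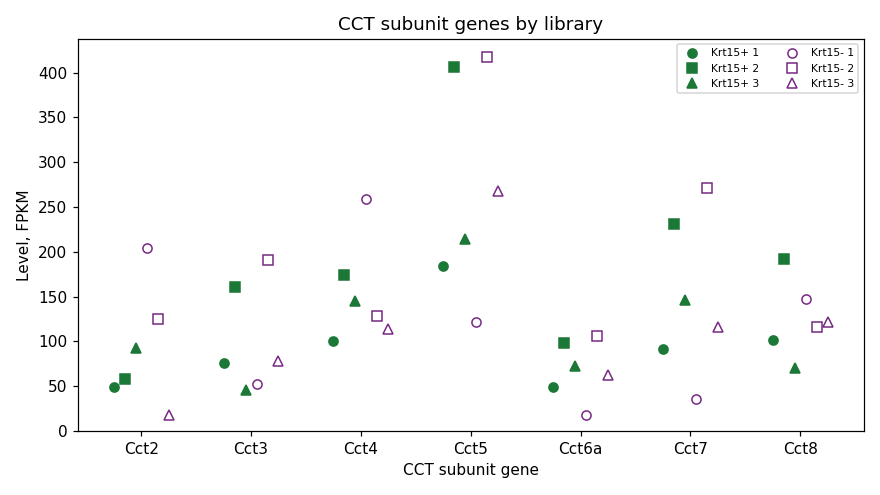
FPKM of the 7 CCT subunit genes fitted, in each Krt15+ (filled green) and Krt15- (open purple) library, with circle, square and triangle for replicates 1, 2 and 3. Cct5 reaches 406 FPKM in Krt15+ replicate 2 and 418 FPKM in Krt15- replicate 2, and the groups overlap for every subunit.

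The J-domain proteins of the A type, which resemble bacterial DnaJ, showed no shared direction. Dnaja2 had 14.1, 38.7 and 51.7 FPKM in Krt15+ and 226, 48.6 and 44.4 FPKM in Krt15- libraries, its outlying value in Krt15- replicate 1. Its difference was -1.34 with that library and -0.59 without it. Dnaja1 had 32.0, 37.4 and 25.8 FPKM in Krt15+ and 7.78, 62.9 and 33.3 FPKM in Krt15- libraries. Dnaja3, the mitochondrial Tid1, was listed at 0 in Krt15- replicate 1 and had 49.3 and 12 FPKM in Krt15- replicates 2 and 3, beside 7.75, 13.9 and 9.84 FPKM in Krt15+ libraries. Of 4 differences 3 were above 0, but without Krt15- replicate 1 there were 1 above and 3 below. The median of 0.32 was -0.56 without that library and -0.10 with quantile normalization. In GENCODE, exons of Dnaja4 overlap those of Wdr61 by up to 1581 bases, and exons of Dnaja1 those of Smu1 by up to 608, on the opposite strand, so their values are uncertain. Hspa1l overlaps Gm10501 in the same way by up to 1778 bases, and Dnajc14 overlaps Ormdl2 by up to 1114. Shorter overlaps of this kind, from 192 to 452 bases, touch among others Cct6a, Hspa1a, Hsp90b1, Hspb2, Dnajb6, Cct7 and Cct8. Dnajc30, Dnajc1, Dnajb13 and Dnajc7 also have overlaps in that range.

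Dnajb1 (HSP40), the stress-inducible partner of HSP70, made up 79.8%, 86.5% and 88.0% of the DNAJB FPKM in Krt15+ and 93.7%, 82.8% and 74.1% in Krt15- libraries. It had 657, 1407 and 741 FPKM in Krt15+ and 306, 1196 and 437 FPKM in Krt15- libraries, means of 935 ± 411 and 646 ± 481 FPKM (SD, n = 3 each). The difference was 0.70 ± 0.54 (SE), or 0.29 without Krt15- replicate 1, and replicate 2 was the highest of both groups. Dnajb6, which keeps aggregation-prone proteins apart and whose promoter is printed above, had 79.2, 101 and 67.7 FPKM in Krt15+ and 15.6, 115 and 94.9 FPKM in Krt15- libraries.

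Dnajb14, a J-protein of the endoplasmic reticulum membrane, had 7.60, 7.51 and 6.92 FPKM in Krt15+ libraries and was listed at 0, 0 and 0.67 FPKM in Krt15- libraries. Its Krt15+ values were close together and all above the Krt15- values, with a difference of 2.81. It is 1 of the 4 genes with a Krt15- mean under 1 FPKM that passed the filter through their Krt15+ level, so it could enter the fit only with a difference. Its mean over the 6 libraries is under 5 FPKM, and it is named because so few genes stood apart, after its values were seen. Its close relative Dnajb12 was listed at 0 in 3 libraries and reached 7.06 FPKM in Krt15+ replicate 2 and 11.2 FPKM in Krt15- replicate 2. Dnajb9 (ERdj4), an unfolded-protein-response gene, had 32.7, 23.5 and 9.19 FPKM in Krt15+ and 0.08, 12 and 5.25 FPKM in Krt15- libraries, with a difference of 2.19, or 1.17 without Krt15- replicate 1, and overlapping groups. Dnajb11 (ERdj3), a BiP partner, had 26.0, 52.2 and 7.99 FPKM in Krt15+ and 0.11, 81.7 and 27.7 FPKM in Krt15- libraries. Its difference of 0.76 was -1.06 without Krt15- replicate 1. Dnajb4 had 13.6, 8.13 and 0.05 FPKM in Krt15+ and 0.84, 17.3 and 20.4 FPKM in Krt15- libraries, and its difference of -0.79 was -1.93 without Krt15- replicate 1 and 0.36 without Krt15+ replicate 3. Of the 8 DNAJB genes fitted 6 were above and 2 below 0, with a median of 0.73, and -0.03 without Krt15- replicate 1.

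**Figure D5:**
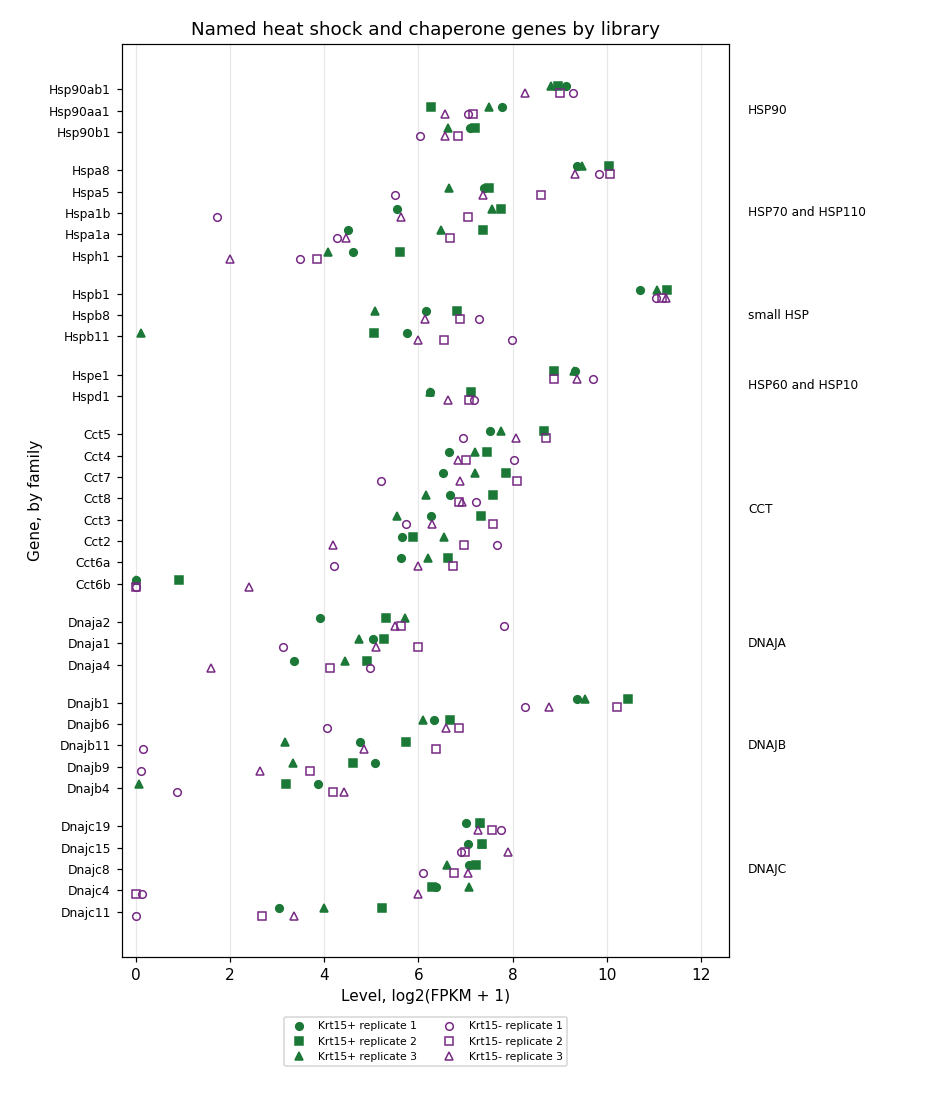
Level in log2(FPKM + 1) of the named heat shock and chaperone genes in each library, Krt15+ filled green just above Krt15- open purple, ordered by family and by mean. Hspb1 lies at the right in all 6 libraries, while Dnajc4, Hspb11, Dnajb9, Dnajb11, Dnajb4 and Dnajc11 have 1 or 2 libraries near 0 and Cct6b most of its libraries.

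Dnajc4, the gene that led to the choice of the set, encodes a J-domain protein of little known function. It had 82.4, 77.6 and 133 FPKM in Krt15+ and 0.09, 0 and 62.5 FPKM in Krt15- libraries. All Krt15+ values were above all Krt15- values, but Krt15- replicate 3 lay much nearer to the Krt15+ libraries than to the other Krt15- libraries. The difference was 4.54 ± 1.52 (SE), with an interval of 1.22 to 7.87, and ran from 1.82 with library weights to 6.52 without Krt15- replicate 3. The groups overlapped with upper-quartile or median-of-ratios scaling. An exact 0 in FPKM can also be a failed estimate, so its level in Krt15- replicate 2 is given as listed at 0.

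The other DNAJC genes had varied functions and few differences beyond their spread. The highest were Dnajc19, of the mitochondrial import motor, with 127, 159 and 157 FPKM in Krt15+ and 215, 188 and 153 FPKM in Krt15- libraries; Dnajc15, of the mitochondrial inner membrane, with 132, 163 and 162 FPKM in Krt15+ and 120, 126 and 238 FPKM in Krt15- libraries; and Dnajc8, a splicing-associated protein, with 133, 149 and 96.8 FPKM in Krt15+ and 68.0, 106 and 131 FPKM in Krt15- libraries. All 3 overlapped between the groups. Dnajc11, tied to mitochondrial cristae, had 7.22, 36.2 and 14.9 FPKM in Krt15+ and 0, 5.41 and 9.20 FPKM in Krt15- libraries and also overlapped. Dnajc24, a diphthamide synthesis factor, had 26.2, 20.5 and 17.7 FPKM in Krt15+ and 0, 31.7 and 41.2 FPKM in Krt15- libraries, so Krt15- replicate 1 alone kept it from standing lower in Krt15+. Dnajc9, a histone chaperone, was listed at 0 in Krt15- replicate 1 and at 0.06 FPKM in Krt15+ replicate 3, with 26.7 to 35.9 FPKM in the other 4 libraries. Dnajc12 was above 0 in a single library, Krt15+ replicate 1, with 15.2 FPKM. Of the 20 DNAJC genes fitted 15 were above and 5 below 0, with a median of 0.66, and -0.16, 9 above and 11 below, without Krt15- replicate 1. Among the 15, Dnajc12 and Dnajc18 had a Krt15- mean under 1 FPKM and passed the filter through their Krt15+ level alone. Of the 18 members listed at 0 in some library, 12 were DNAJC genes.

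The spread between libraries depended on the level. The 18 members with a mean of 100 FPKM or more had a median coefficient of variation over the 6 libraries of 31.3%, the 27 from 10 to 100 FPKM one of 76.1%, and the 15 from 1 to 10 FPKM one of 132%.

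By cell compartment, 8 members that work in the endoplasmic reticulum (Hspa5, Hsp90b1, Dnajb9, Dnajb11, Dnajc1, Dnajc3, Dnajc10 and Hspa13) all had differences above 0, with a median of 0.67. Without Krt15- replicate 1 that was 4 above and 4 below, with a median of -0.03. Their summed level was 243 to 431 FPKM in Krt15+ and 111 to 621 FPKM in Krt15- libraries. Of these 8, Hspa13 had a Krt15- mean of 0.49 FPKM. It passed the filter on low values through its Krt15+ level alone, which fixed its direction. Dnajb12 and Dnajb14, of the endoplasmic reticulum membrane, were not in that list and had differences of -0.60 and 2.81. A list of 8 mitochondrial members had 4 above and 4 below 0 and a median of 0.18, or -0.16 without that library. A list of 5 stress-inducible cytosolic members, Hspa1a, Hspa1b, Dnajb1, Hsph1 and Hspb1, which did not take in Hsp90aa1 (difference 0.25), had 4 above and 1 below 0 with a median of 0.99, and 0.55 without that library. These 5 summed to 2428, 4314 and 3181 FPKM in Krt15+ and 2452, 3740 and 2937 FPKM in Krt15- libraries.

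The partner genes, from lists also chosen with results of these data known, held no gene that passed the limma test (0 of 9423 called in all). Of the HSF and heat shock control genes 5 were fitted, all above 0, and 3 above and 2 below without Krt15- replicate 1 (medians 0.40 and 0.05). Hsf1, which encodes the main heat shock transcription factor, had 7.13, 52.0 and 8.87 FPKM in Krt15+ and 0, 45.8 and 5.88 FPKM in Krt15- libraries, again highest in replicate 2 of each group. Ubb, a polyubiquitin gene, had 5820, 5515 and 5549 FPKM in Krt15+ and 939, 5048 and 5860 FPKM in Krt15- libraries, with Krt15- replicate 1 alone low. Hsbp1, a binder of HSF1, had 317, 194 and 336 FPKM in Krt15+ and 216, 259 and 241 FPKM in Krt15- libraries.

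Of the 14 exchange factors and co-chaperones of HSP70 fitted, 8 were above and 6 below 0, and 6 above and 8 below without Krt15- replicate 1 (medians 0.21 and -0.23). Sil1, the exchange factor of BiP, stood apart, with 24.7, 28.7 and 29.0 FPKM in Krt15+ and 0, 13.7 and 17.2 FPKM in Krt15- libraries. Its difference was 2.14, with an interval of -0.68 to 4.96, which includes 0. It was 1 of the 14 to stand apart higher in Krt15+, beside 8.85% of all genes tested, and nothing is read from it. Bag1, an exchange factor, had 233, 414 and 286 FPKM in Krt15+ and 83.5, 460 and 510 FPKM in Krt15- libraries, and St13 (HIP) 66.1, 104 and 111 FPKM in Krt15+ against 190, 132 and 33.5 FPKM in Krt15-, both with overlap between the groups. Of 18 HSP90 co-chaperones 11 were above and 7 below 0, and 5 above and 13 below without Krt15- replicate 1. Ahsa1, which speeds the HSP90 ATPase, was even, with 120, 160 and 119 FPKM in Krt15+ and 112, 116 and 119 FPKM in Krt15- libraries. Nudc, one of the genes of highest mean in that list, had 98.5, 263 and 94.4 FPKM in Krt15+ and 384, 164 and 134 FPKM in Krt15- libraries. Fkbp5, a co-chaperone of steroid receptors and itself a known glucocorticoid and progestin target, was listed at 0 in all 3 Krt15+ libraries and had 12.7, 0.99 and 0.01 FPKM in Krt15- libraries. It thus passed the filter through its Krt15- level alone, chiefly that of Krt15- replicate 1, and nothing is read from it.

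Prefoldin hands actin and tubulin to CCT, and its genes differed in level. Pfdn2, the highest, had 568.3, 386 and 443 FPKM in Krt15+ and 910, 415 and 434 FPKM in Krt15- libraries, and Pfdn5 312, 222 and 254 FPKM in Krt15+ against 1006, 235 and 540 FPKM in Krt15- libraries. Pfdn4 had 126, 38.8 and 46.7 FPKM in Krt15+ and 0.91, 82.8 and 113 FPKM in Krt15- libraries. The list of Tcp1 and prefoldin also held Pdcl, Pdcl3 and Txndc9, and of its 9 genes 4 were above and 5 below 0. Of 21 genes of folding and the unfolded protein response in the endoplasmic reticulum 18 were above and 3 below 0, and 12 above and 9 below without Krt15- replicate 1. Pdia6, a disulfide isomerase, had 164, 298 and 201 FPKM in Krt15+ and 89.8, 282 and 206 FPKM in Krt15- libraries. Sec61b, of the translocation channel, had 687, 535 and 690 FPKM in Krt15+ and 1410, 623 and 989 FPKM in Krt15- libraries. Syvn1, a ubiquitin ligase that clears misfolded proteins, stood apart at low levels, with 2.17, 5.66 and 8.81 FPKM in Krt15+ and 0, 2.13 and 0.25 FPKM in Krt15- libraries. Nothing is read from this, since 8.85% of all genes tested stood apart in that direction. With a Krt15- mean of 0.79 FPKM, Syvn1 also passed the filter through its Krt15+ level alone.

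Of 13 genes of mitochondrial quality control 9 were above and 4 below 0, and 7 above and 6 below without Krt15- replicate 1 (medians 0.59 and 0.03). Timm44, which tethers the mitochondrial HSP70 to the import pore, stood apart, with 11.2, 16.2 and 9.65 FPKM in Krt15+ and 61.3, 56.0 and 27.3 FPKM in Krt15- libraries. Its difference was -1.83, with an interval of -3.94 to 0.28, which includes 0. It was 1 of the 13 to stand apart lower in Krt15+, beside 2.44% of all genes tested, and nothing is read from it. The import channel gene Timm23 had 117, 176 and 138 FPKM in Krt15+ and 137, 181 and 229 FPKM in Krt15- libraries. Timm17a, of the same channel, had 168, 196 and 234 FPKM in Krt15+ and 0, 250 and 231 FPKM in Krt15- libraries, so Krt15- replicate 1 alone set its difference of 2.36.

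Immediate early genes, which cell handling is known to induce along with heat shock genes, all had differences above 0. This held for 12 of 12 fitted, also without Krt15- replicate 1, with medians of 0.76 and 0.45. Of all genes tested 68.6% were above 0, and 4801 were above and 4618 below 0 without that library. Fos had 993, 1373 and 1285 FPKM in Krt15+ and 713, 981 and 761 FPKM in Krt15- libraries, with no overlap, and Ier3 214, 91.1 and 120 FPKM in Krt15+ against 69.0, 75.2 and 89.1 FPKM in Krt15- libraries. Ier2 had 838, 1817 and 1216 FPKM in Krt15+ and 504, 1561 and 828 FPKM in Krt15- libraries, with overlap. The list summed to 5501, 10083 and 6886 FPKM in Krt15+ and 2602, 7765 and 4315 FPKM in Krt15- libraries, highest in replicate 2 of each group, as were Hspa1a, Hspa1b and Dnajb1. That peak is not particular to these genes. The sums of the basal markers, the CCT genes and the HSP70 and HSP90 co-chaperone lists were also highest in replicate 2 of each group. For the basal markers they were 5686, 14090 and 3859 FPKM in Krt15+ and 3926, 11100 and 5271 FPKM in Krt15- libraries. The part of handling in the levels of the inducible chaperones was not tested.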

How the data were processed

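The sorted cells went straight into cDNA synthesis with a SMART-Seq v4 kit, per the labels' protocols. The authors deposited a single table with FPKM per gene and library, although its name speaks of counts. Per the submitters' processing notes the tools were STAR 2.5, Cufflinks 2.2.1 and DESeq2, and the build mm9, without their roles. Annotation, filters and strand: not given in the sources used here. Of 24043 rows, 27 whose symbols had become dates were left out.

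The 6 libraries, 3 Krt15+ and 3 Krt15-, were compared on log2(FPKM + 1), a scale that understates changes of low genes. The 9423 genes averaging 1 FPKM or more were fitted with limma-trend (limma 3.58.1, R 4.3.3), group as the only term, 2-sided, adjusted by Benjamini-Hochberg and called below 0.05. The design held a count model in case the table held counts, which it did not. The fit was also run on simulated data as a check. The share of true differences that it recovers at the scatter of these libraries is not given here. The 0 calls are thus no proof that the groups are alike. Tables were made in Python 3.11.15 with pandas 2.3.3 and numpy 2.4.6, figures with matplotlib 3.10.9.

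The members, gene lists and compartments were chosen with earlier results of these data known. The genes named were Dnajc4, the main HSP90, HSP70, HSP110, small HSP, HSP60, HSP10 and CCT genes, the 3 highest of each family, among members with a mean of 5 FPKM or more those with groups apart and the 4 of largest difference either way, and of each partner list the 2 highest and those apart. Other members, and Hsf1, Tcp1, Fkbp5, Syvn1, Dcn and Lyz2, are given beside them for their role or as the exceptions of a count, and were chosen after their values were seen.

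Depth was estimated from the step that a single fragment makes in FPKM times length, over 2176 single-transcript genes of at least 1500 bases, with a tolerance of 7%, and is approximate. No counting intervals are given. Promoters are from RefSeq, GRCm38.p6. Exon overlaps and reading frames were read from GENCODE transcripts, not from the authors' build, so no gene coordinates in that build are given. Alternatives were other pseudocounts, filters, scalings, library weights, a replicate block, and each library left out.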

Additional observations from a re-analysis of the deposited data

How the results depend on the processing

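The count of 0 calls held with every alternative but library weights, which gave 8 genes, none of them a member. With the replicate number as a block limma also called 0 genes and 0 members. Deviations of same-numbered libraries from their group means correlated at 0.13, 0.17 and 0.01, and those of differently numbered libraries at -0.16 to 0.03. Sample names of the same number also share a prefix across the groups, whose meaning the labels do not give. Whether the numbers mark pairs is not settled by these values, and the libraries were not taken as pairs. The upper quartile had not been defined in advance and was taken over the tested genes. The 2 other ways of taking it, over genes above 0 in any library or over the values above 0 of each library, were added after seeing the data, and the choice between the 3 was made with their results in view. Taken over genes above 0 in any library, it turned the members' median to -1.01 and gave 2 members apart higher and 4 lower, beside 6.66% and 3.70% of all genes; taken over values above 0 of each library, it gave 0.65, 5 and 0, beside 11.1% and 0.79%. Over the tested genes it gave 0.12, 2 and 0, beside 9.08% and 2.27%. Members apart were 1 higher with median-of-ratios scaling, beside 8.002% of all genes, and 0 lower with quantile normalization, beside 3.05%. The median of all genes, 0.63, was 0.48, 0.05 and 0.85 with the 3 upper quartiles in the order tested genes, any library and each library, 0.43 with median-of-ratios scaling and 0.15 with quantile normalization. With upper quartiles over genes above 0 in any library the family medians of HSP90 (-1.41), HSP70 and HSP110 (-0.03), DNAJA (-1.18) and DNAJB (-0.58) also turned below 0; with those over the values above 0 of each library, HSP60 and HSP10 (0.10) and CCT (0.24) turned above 0. The small HSP median stayed below 0 in every setting, but this is no result about small HSP chaperones. Of the genes behind it Hspb2 passed the filter through its Krt15- level alone, and Hspb11 is not such a chaperone. The difference of Hspb1 turned sign in 3 of 17 settings. Leaving out each library gave 3 to 11 members apart higher, beside 10.8% to 19.0% of all genes, 1 to 4 lower, beside 3.78% to 8.95%, and a members' median of -0.07 to 0.86. The 11, without Krt15- replicate 2, are 18.3% of the members beside 18.1% of all genes, and 2 libraries against 3 stand apart more easily by construction. For the 33 named members fitted, 78 of 561 differences turned sign, in 25 genes; Dnajc4, Hspa1b, Dnajb9, Dnajc11, Dnaja2, Hspb8, Hspb11 and Hspd1 kept theirs in all 17 settings. With 3 libraries a group and zeros in 18 of 60 members, the levels of members under 10 FPKM are the least certain.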
